A study of Homo sapiens with 24 samples.

Results

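LCN2, SERPINA3, PIGR, C3, and CFB encode secreted or surface proteins of epithelial defence and the acute-phase response. They were followed across 24 mRNA-seq libraries of SKBR3 cells (SKBr3 in the labels), an established human breast cancer line with ERBB2 amplification. The 5 genes were named from measured values of these libraries and were looked up by symbol among the 14493 genes of the count table. LCN2 (Gene ID 3934), SERPINA3 (Gene ID 12), and PIGR (Gene ID 5284) had a row, so that 3 of the 5 named genes are described, and C3 and CFB were not analysed here. Because the level across these libraries is what chose the genes, their levels and changes are given as a description, with standard errors and without p-values, and where they are counted among called genes nothing is read from the count.

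Lipocalin-2, the product of LCN2, binds bacterial siderophores and thereby keeps iron from microbes. SERPINA3 encodes α1-antichymotrypsin, a serpin that inhibits chymotrypsin-like proteases such as cathepsin G of neutrophils. PIGR encodes the polymeric immunoglobulin receptor, which carries dimeric IgA and IgM across glandular epithelia such as that of the breast. C3 and CFB belong to the alternative pathway of complement. Genes of this kind are classical targets of NF-κB, C/EBP, and STAT factors downstream of interleukin-6, interleukin-1, interleukin-17, and interferons, and several are induced in epithelium under inflammation.

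The 24 libraries fell into 8 groups of 3 replicates. Cells were collected on day 7, after drug was renewed on day 3, in the ND-646 (250 nmol/L, inhibitor of acetyl-CoA carboxylase, ACC), TVB-3166 (250 nmol/L, inhibitor of fatty acid synthase, FASN), alisertib (500 nmol/L, Aurora A kinase inhibitor), doxorubicin (10 nmol/L, topoisomerase poison), bleomycin (10 μmol/L, DNA-breaking agent), and palbociclib (1 μmol/L, CDK4/6 inhibitor, spelled Palboclib in the labels) groups. Untreated cells were collected on day 0, when they served as the proliferative control, and on day 7. The labels of all drug groups read refeed day 3, and those of untreated day 7 name no refeed. In comparisons with untreated day 7, a difference in refeeding therefore cannot be told apart from the drug. The study describes the treated cells as therapy-induced senescence (TIS) cells, and those treated with ND-646 or TVB-3166 as fatty acid synthesis TIS (FASTIS) cells. All groups come from a single cell line, each drug was given at 1 dose, and the dose differs between drug classes. The methods speak of independent repeats of cell-based observations in general, but neither they nor the labels say whether these replicate libraries came from separate cultures, so that p-values and standard errors measure the spread between these libraries, which may be technical.

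Total counts per library ranged from 29405121 to 44316330, the lowest count in the table was 1, and none of 276 pairs of libraries held identical counts (0 pairs). The cell type label was checked against marker genes. All 6 of 6 markers of SKBR3 epithelium had a row (ERBB2, EPCAM, KRT8, KRT18, KRT19, and GRB7), with a summed level of 9938 to 20059 CPM (counts divided by library size and put on a common scale), and ERBB2 alone reached 5121 to 8827 CPM. Of the leukocyte markers 1 of 6 (CD68), of the fibroblast or endothelial markers 2 of 5 (COL1A1 and VWF), and of the hepatocyte markers 1 of 5 (SERPINA1) had a row, and the others were not analysed here.

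The sequence 250 bases upstream of each start site is shown because the classical regulators of these genes bind there (RefSeq, GRCh38.p14). The windows are chr9:128149203-128149452 on the plus strand for LCN2, chr14:94612141-94612390 on the plus strand for SERPINA3, and chr1:206946467-206946716 on the minus strand for PIGR. Each is written 5′ to 3′ in the direction of the gene, and capitals mark every match to an NF-κB, C/EBP, or AP-1 motif.
LCN2 promoter: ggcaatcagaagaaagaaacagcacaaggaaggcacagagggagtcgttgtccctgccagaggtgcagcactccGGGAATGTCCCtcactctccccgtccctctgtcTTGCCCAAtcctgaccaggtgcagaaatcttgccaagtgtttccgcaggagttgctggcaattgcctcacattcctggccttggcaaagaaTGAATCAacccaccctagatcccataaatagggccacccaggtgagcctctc
SERPINA3 promoter: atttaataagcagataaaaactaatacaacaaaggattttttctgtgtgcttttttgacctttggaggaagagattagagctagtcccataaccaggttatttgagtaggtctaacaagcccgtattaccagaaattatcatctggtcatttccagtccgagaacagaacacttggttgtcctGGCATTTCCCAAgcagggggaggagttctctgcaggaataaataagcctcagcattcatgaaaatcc
PIGR promoter: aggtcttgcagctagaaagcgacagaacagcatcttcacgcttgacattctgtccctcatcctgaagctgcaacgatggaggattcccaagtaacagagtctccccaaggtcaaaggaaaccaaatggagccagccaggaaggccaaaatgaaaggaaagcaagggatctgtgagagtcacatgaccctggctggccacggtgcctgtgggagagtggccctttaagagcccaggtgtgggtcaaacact

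Motifs were searched on both strands as GGGANNNNCC for NF-κB, TTNCNNAA for C/EBP, TGANTCA for AP-1, TTTCNNTTTC for the interferon-stimulated response element, and TTCNNNGAA for STAT factors, letters that were written with these promoters known. In the LCN2 window, GGGAATGTCC lay from -176 to -167 relative to the start site on the strand of the gene. GGAATGTCCC, from -175 to -166, matched on the opposite strand and overlaps it. TTGCCCAA (C/EBP) lay from -143 to -136 and TGAATCA (AP-1) from -52 to -46. In the SERPINA3 window, GGCATTTCCC matched NF-κB on the opposite strand from -67 to -58 and overlapped TTTCCCAA (C/EBP) from -63 to -56. The PIGR window held 0 matches to the 5 motifs, which says only that these letters are not in these 250 bases. Matches are frequent by themselves, as 22.6% of 35116 promoters held the NF-κB letters, 33.2% the C/EBP letters, and 6.57% the AP-1 letters. The interferon-response and STAT letters, found in 3.02% and 6.57% of promoters, had no match in the windows of the 3 genes.

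On GRCh37, the build of the counts, LCN2 spans chr9:130911350-130915732 on the plus strand, with 7 exons and 820 bases in its canonical transcript. SERPINA3 spans chr14:95078721-95090392 on the plus strand (5 exons, 1576 bases). A protein-coding gene model without a symbol, from 95058395 to 95090983 on the same strand, overlaps it, so that reads of SERPINA3 could have been split or dropped in counting and its level is uncertain. PIGR spans chr1:207101867-207119811 on the minus strand (11 exons, 4275 bases).

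LCN2 was low in untreated cells and higher in the TIS cells of every drug, with the highest level in ND-646 cells. In untreated cells of day 0 it was measured at 0.407, 1.28, and 1.12 CPM in replicates 1, 2, and 3, from 16, 40, and 38 counts, and on day 7 at 0.377, 1.22, and 0.267 CPM. Both untreated groups therefore rest on few counts and overlapped in range. In ND-646 cells, the replicates were at 144, 119, and 96.4 CPM (3387, 3316, and 2749 counts). In TVB-3166 cells, they were at 12.2, 23.3, and 22.0 CPM. The lowest ND-646 library was above every library of the other 7 groups, and TVB-3166 cells lay between untreated and ND-646 cells without overlap with either.

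Bleomycin cells expressed LCN2 at 17.5, 61.3, and 31.2 CPM. In doxorubicin cells the gene was at 16.7, 19.2, and 17.3 CPM. Doxorubicin replicates were close to each other, whereas bleomycin replicates were spread widely, with the highest in replicate 2. Palbociclib cells had 6.51, 17.3, and 10.2 CPM, and alisertib cells 3.27, 7.47, and 4.80 CPM. In alisertib cells, the lowest group among the drugs, all 3 replicates were still above all 6 untreated libraries.

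By mean level, the order for LCN2 was ND-646 (120 ± 23.8 CPM, SD, n = 3), bleomycin (36.7 ± 22.4), TVB-3166 (19.2 ± 6.05), doxorubicin (17.7 ± 1.29), palbociclib (11.3 ± 5.47), alisertib (5.18 ± 2.13), untreated day 0 (0.937 ± 0.465), and untreated day 7 (0.620 ± 0.519). Neighbours in this order overlapped in range except for ND-646 and bleomycin, and alisertib and untreated day 0. Relative to untreated day 0, the log2 fold-change was 7.01 ± 0.39 (SE) in ND-646 cells, a fold-change of 129, and 4.39 ± 0.36 in TVB-3166 cells, a fold-change of 20.9. It was 5.33 ± 0.54 with bleomycin, 4.28 ± 0.30 with doxorubicin, 3.61 ± 0.43 with palbociclib, and 2.49 ± 0.41 with alisertib. Without bleomycin replicate 2, the bleomycin value was 4.72. The level in TVB-3166 cells was 6.22-fold lower than in ND-646 cells (log2 fold-change of -2.64 ± 0.27, and -2.66 with the replicate number as a block).

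PIGR was also low in untreated cells and higher with every drug, but its highest level was in bleomycin cells. Its day-0 level was 0.153, 0.959, and 0.917 CPM, from 6, 30, and 31 counts, and its day-7 level was 0.687, 2.17, and 1.16 CPM. In bleomycin cells, PIGR reached 58.2, 305, and 155 CPM (1730, 9553, and 5093 counts). The 3 bleomycin libraries were thus above all others, although they differed between themselves by more than those of any other drug. Doxorubicin cells had 26.2, 42.8, and 40.7 CPM. Palbociclib cells had 11.2, 35.0, and 25.7 CPM. Between these groups the ranges overlapped.

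Among FASTIS cells, PIGR was at 11.3, 39.7, and 22.1 CPM in ND-646 replicates. In TVB-3166 replicates it was at 8.43, 18.8, and 15.8 CPM. Both sets overlapped with each other and with palbociclib cells. Alisertib cells had 3.11, 6.04, and 5.57 CPM, above all untreated libraries and below all other drug-treated libraries.

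The order for PIGR was bleomycin (173 ± 124 CPM, SD, n = 3), doxorubicin (36.6 ± 9.04), ND-646 (24.4 ± 14.4), palbociclib (24 ± 12), TVB-3166 (14.3 ± 5.32), alisertib (4.91 ± 1.57), untreated day 7 (1.34 ± 0.759), and untreated day 0 (0.676 ± 0.454). Neighbours did not overlap at 3 steps, between bleomycin and doxorubicin, between TVB-3166 and alisertib, and between alisertib and untreated day 7. Relative to untreated day 0, the log2 fold-change was 8.05 ± 0.74 (SE) with bleomycin, a fold-change of 266, and 7.35 without bleomycin replicate 2. It was 5.81 ± 0.40 with doxorubicin, 5.20 ± 0.65 with ND-646, 5.18 ± 0.53 with palbociclib, 4.45 ± 0.46 with TVB-3166, and 2.89 ± 0.48 with alisertib. Between TVB-3166 and ND-646 cells the log2 fold-change was -0.77 ± 0.46, and -0.67 with the replicate number as a block. Within same-numbered libraries, which deviated together in this comparison, the log2 ratio of TVB-3166 to ND-646 was -0.42, -1.08, and -0.48, so that PIGR was lower in TVB-3166 cells in 3 of 3 pairs although the ranges of the groups overlapped.

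SERPINA3 followed another order, with its highest levels in bleomycin, doxorubicin, and palbociclib cells and levels close to those of untreated day-0 cells in FASTIS cells. On day 0 it was at 0.763, 2.14, and 1.57 CPM (30, 67, and 53 counts), and on day 7 at 0.665, 0.608, and 0.505 CPM. Every day-7 library was below every day-0 library. Bleomycin cells had 13.7, 8.17, and 22.7 CPM. In doxorubicin cells SERPINA3 was at 7.78, 5.24, and 9.0 CPM, and in palbociclib cells at 5.62, 5.24, and 7.58 CPM. All 9 of these libraries were above all 15 others.

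In ND-646 cells SERPINA3 was at 2.08, 2.50, and 2.28 CPM. In TVB-3166 cells it was at 2.44, 2.31, and 2.32 CPM. These 6 libraries differed little between themselves, and the ND-646 range overlapped with day 0 while the lowest TVB-3166 library was just above the highest of day 0. Alisertib cells had 0.880, 0.484, and 0.879 CPM, which overlapped with both untreated groups.

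The means for SERPINA3 were 14.9 ± 7.33 CPM (SD, n = 3) with bleomycin, 7.34 ± 1.92 with doxorubicin, 6.15 ± 1.26 with palbociclib, 2.36 ± 0.0726 with TVB-3166, 2.29 ± 0.210 with ND-646, 1.49 ± 0.693 in untreated day-0, 0.747 ± 0.229 in alisertib, and 0.593 ± 0.0812 in untreated day-7 cells. Palbociclib and TVB-3166 were the only neighbours in this order whose ranges did not overlap. Relative to day 0, the log2 fold-change was 3.33 ± 0.44 (SE) with bleomycin, 2.33 ± 0.34 with doxorubicin, and 2.06 ± 0.33 with palbociclib. It was 0.68 ± 0.33 with TVB-3166, 0.62 ± 0.38 with ND-646, and -0.98 ± 0.40 with alisertib. TVB-3166 and ND-646 cells differed by 0.05 ± 0.21 on the log2 scale.

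A gene was called where it differed by 2-fold or more and the p-value of edgeR's quasi-likelihood test, adjusted by Benjamini-Hochberg, was under 0.05. Against untreated day 0, 3 of 3 genes were called higher with bleomycin, doxorubicin, and palbociclib, and 2 of 3 (LCN2 and PIGR) with ND-646, TVB-3166, and alisertib. The share of all tested genes called higher was 10.5% for ND-646, 10.7% for TVB-3166, 11.1% for bleomycin, 9.67% for doxorubicin, 10.4% for palbociclib, and 6.06% for alisertib. In TVB-3166 against ND-646 cells, LCN2 was called lower, as were 0.117% of all genes, and 0.439% were called higher. Between untreated day 7 and day 0, 0.169% of genes were called higher and 0.0293% lower (1.66% and 0.33% at an unadjusted p-value), and 0 of the 3 genes was called higher by edgeR, by DESeq2, or at an unadjusted p-value under 0.05. Of the 3 genes, 1 (SERPINA3) was lower there by DESeq2 and at an unadjusted p-value of edgeR, and 0 at edgeR's adjusted p-value. The 6 drug comparisons share the same 3 day-0 libraries and are not independent.

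The choice of untreated group mattered most for SERPINA3, whose log2 fold-change from day 0 to day 7 of untreated cells was -1.30 ± 0.39 (SE). Relative to untreated day 7, it was 1.94 ± 0.26 with ND-646 and 1.98 ± 0.24 with TVB-3166 and was called higher in both, where 8.03% and 7.12% of genes were called higher. The alisertib value turned from -0.98 to 0.34 ± 0.32 and was called in neither. With bleomycin, doxorubicin, and palbociclib it was 4.64 ± 0.39, 3.64 ± 0.26, and 3.37 ± 0.24, against 8.19%, 6.87%, and 6.38% of genes called higher. For LCN2, which was -0.58 ± 0.57 between the untreated groups, the log2 fold-change relative to day 7 was 7.61 ± 0.48 with ND-646 and 4.98 ± 0.41 with TVB-3166. It was 5.93 ± 0.60 with bleomycin, 4.89 ± 0.33 with doxorubicin, 4.22 ± 0.48 with palbociclib, and 3.10 ± 0.46 with alisertib. PIGR, at 1.00 ± 0.58 between the untreated groups, had smaller values relative to day 7 than to day 0, from 1.92 ± 0.37 with alisertib to 7.07 ± 0.68 with bleomycin. LCN2 and PIGR were called higher against day 7 with all 6 drugs, including alisertib, where 2.11% of genes were.

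**Figure D1:**
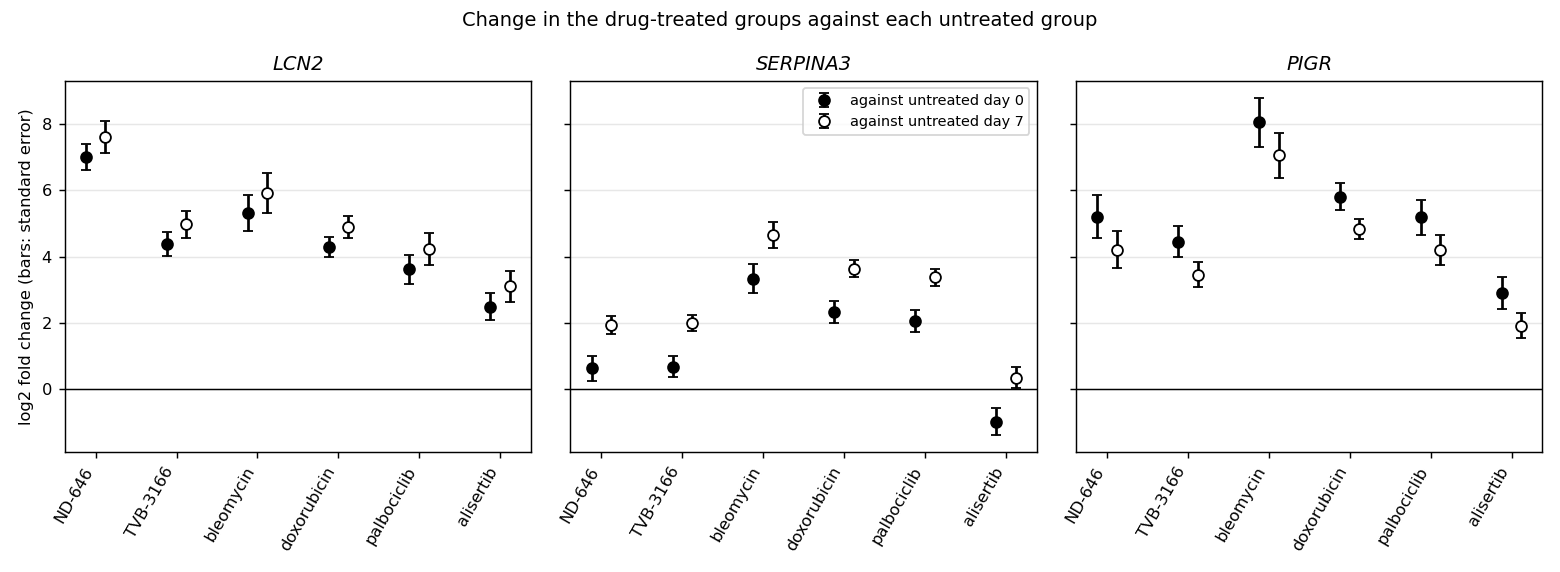
Log2 fold-change (vertical axis, bars for the standard error) of LCN2, SERPINA3, and PIGR in the 6 drug-treated groups (horizontal axis), relative to untreated day 0 (filled points) and untreated day 7 (open points), 3 libraries a group. LCN2 values are higher and PIGR values lower against day 7 than against day 0, and for SERPINA3 the alisertib value moves from -0.98 to 0.34.

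Levels of different genes were compared per kilobase (kb) of the canonical transcript. On that scale LCN2 was the most abundant of the 3 in ND-646 cells, at 146 ± 29.0 CPM per kb (SD, n = 3), against 5.70 ± 3.36 for PIGR and 1.45 ± 0.133 for SERPINA3. In bleomycin cells LCN2 (44.7 ± 27.3 CPM per kb) and PIGR (40.4 ± 29.1) were at similar levels, and SERPINA3 was at 9.42 ± 4.65. The ratio of PIGR to LCN2 per kb was 0.0150, 0.0643, and 0.0440 in ND-646 replicates and 0.132, 0.155, and 0.138 in TVB-3166 replicates. In bleomycin replicates it was 0.638, 0.954, and 0.954. By mean the ratio was thus lowest with ND-646 and highest with bleomycin, and neither range overlapped with that of TVB-3166 cells. Its mean was 0.394 ± 0.0817 with doxorubicin, 0.400 ± 0.0779 with palbociclib, 0.187 ± 0.0339 with alisertib, 0.124 ± 0.0456 in untreated day-0, and 0.508 ± 0.280 in untreated day-7 cells.

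**Figure D2:**
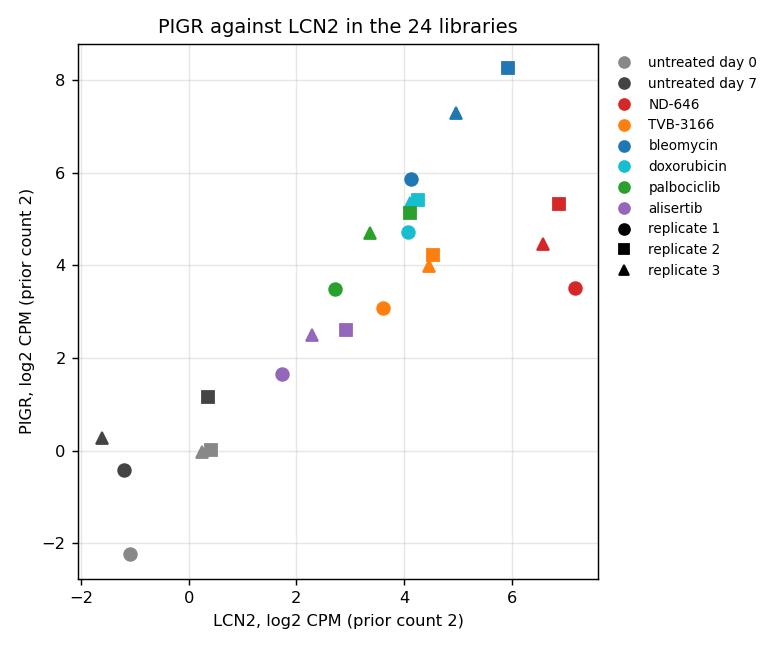
PIGR (vertical axis) against LCN2 (horizontal axis), both in log2 CPM with a prior count of 2, in the 24 libraries, coloured by group and with the shape giving the replicate number. The 3 ND-646 libraries lie to the right of the others, with a PIGR to LCN2 ratio per kb of 0.0150 to 0.0643, and the bleomycin libraries lie highest.

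Within groups, PIGR and LCN2 varied together. PIGR was lowest in replicate 1 in 8 of 8 groups and highest in replicate 2 in 8 of 8, a pattern held by 4 of 14078 genes, PIGR included (0.0284%), while 0.923% of genes were lowest in replicate 1 and 0.206% were highest in replicate 2 in all groups. LCN2 was lowest in replicate 1 in 6 of 8 groups and highest in replicate 2 in 7 of 8, with ND-646 cells as an exception, where replicate 1 was the highest. SERPINA3 was lowest in replicate 2 in 5 of 8 groups. As a description over the 24 libraries, which include 8 groups that differ in all 3 genes, Pearson's r of log2 CPM was 0.845 for LCN2 and PIGR, 0.804 for SERPINA3 and PIGR, and 0.592 for LCN2 and SERPINA3. After the group means were removed, r was 0.800 for LCN2 and PIGR, 0.14 for SERPINA3 and PIGR, and -0.02 for LCN2 and SERPINA3. The labels do not say what a replicate number marks, and its part in these values was not tested. Without the libraries numbered 1, a setting chosen after seeing the data, the log2 fold-change relative to day 0 was 6.47 for LCN2 in ND-646, 4.24 for LCN2 in TVB-3166, and 7.94 for PIGR in bleomycin cells, and the number of the 3 genes called higher did not differ with any drug.

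The genes with the pattern most like that of each gene were taken as the 3 with the highest Pearson's r of log2 CPM over the 24 libraries, among 14075 other genes. For LCN2 they included SHB (r = 0.958), which encodes an adaptor protein of tyrosine kinase signalling, and GDF15 (r = 0.957). GDF15, a secreted stress-response cytokine, was at 1.57 ± 0.422 CPM (SD, n = 3) in untreated day-0, 116 ± 66.3 in ND-646, 41.1 ± 3.09 in TVB-3166, and 43.2 ± 16.7 in bleomycin cells. For PIGR they were PLAAT4 (r = 0.985), UBA7 (r = 0.983), and APOL6 (r = 0.979), of which UBA7, the activating enzyme of ISG15 conjugation, and APOL6 are known interferon-stimulated genes. APOL6 was at 3.58 ± 0.994 CPM in untreated day-0, 97.4 ± 9.36 in bleomycin, and 29.0 ± 9.16 in ND-646 cells. For SERPINA3 they were LAMB3 (r = 0.951), which encodes the laminin β3 chain, CSF1R (r = 0.936), the receptor of colony-stimulating factor 1, and GBP2 (r = 0.931), an interferon-inducible GTPase. GBP2 was at 0.961 ± 0.440 CPM in untreated day-0, 10.6 ± 1.98 in bleomycin, and 2.17 ± 0.660 in TVB-3166 cells.

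Around the 3 genes, 166 genes in 5 lists were examined, which include complement, acute-phase plasma proteins, epithelial and mucosal defence, cytokines with their receptors and transcription factors, and lipocalin and serpin relatives with the receptors of lipocalin-2. Of these, 64 had a row in the table. Relative to untreated day 0, 17 were called higher and 5 lower of 61 tested in ND-646 cells (27.9% and 8.2%, against 10.5% and 8.95% of all genes). In TVB-3166 cells 13 were higher and 6 lower of 63 (20.6% and 9.52%, against 10.7% and 6.69%). Bleomycin cells had 22 higher and 3 lower (34.9% and 4.76%, against 11.1% and 7.19%), and doxorubicin cells 23 and 2 (36.5% and 3.17%, against 9.67% and 2.85%). Palbociclib cells had 11 and 7 (17.5% and 11.1%, against 10.4% and 6.09%), and alisertib cells 5 and 2 (7.94% and 3.17%, against 6.06% and 1.38%). The median log2 fold-change over the 6 drugs ran from 0.32 to 2.81 for the plasma proteins, 0.20 to 0.76 for the cytokines, receptors, and factors, 0.09 to 0.70 for complement, -0.56 to 0.54 for epithelial and mucosal defence, and -0.11 to 1.12 for the relatives and receptors, against -0.01 to 0.02 for all genes. The lists were written with earlier results of these data known, and no test was made of a list as a whole.

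Of the plasma proteins of the acute phase, 6 of 25 had a row and 5 were tested against day 0. SERPINA1, which encodes α1-antitrypsin, a serpin like SERPINA3, was upregulated with all 6 drugs, from a log2 fold-change of 1.71 ± 0.15 (SE) with alisertib (edgeR adjusted p = 9.47e-05) to 2.69 ± 0.16 with bleomycin (edgeR adjusted p = 1.12e-05). It rose from 8.41 ± 1.7 CPM (SD, n = 3) to 31.1 ± 12 with ND-646 and 31.7 ± 1.2 with TVB-3166. SAA1, an apolipoprotein of the acute phase, rose by 4.69 ± 0.37 on the log2 scale with bleomycin (edgeR adjusted p = 3.06e-05), by 4.34 ± 0.28 with doxorubicin (edgeR adjusted p = 8.5e-06), and by 1.75 ± 0.34 with palbociclib (edgeR adjusted p = 0.00137). Its value was 0.37 ± 0.44 with ND-646 and 0.73 ± 0.36 with TVB-3166, and relative to untreated day 7 SAA1 was called higher with TVB-3166 (1.2 ± 0.42, edgeR adjusted p = 0.0316). ORM1 and ORM2 (α1-acid glycoproteins) were higher with bleomycin, and HPX (hemopexin) was higher with TVB-3166, doxorubicin, and palbociclib. The HPX call was lost with doxorubicin without doxorubicin replicate 1, and with palbociclib without palbociclib replicate 1 or 3 or day-0 replicate 1 or 2. ORM1 was lower with TVB-3166 and palbociclib, and the TVB-3166 call was lost without TVB-3166 replicate 1 or 3 or day-0 replicate 2. ORM1, ORM2, and SAA1 have near-identical paralogs, and their counts are uncertain.

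In epithelial and mucosal defence, 14 of 35 listed genes had a row. MUC20, a membrane mucin, was upregulated with all 6 drugs, from 1.64 ± 0.062 CPM in untreated day-0 to 31.3 ± 7.3 in ND-646, 20.9 ± 4.4 in TVB-3166, and 71.8 ± 26 in bleomycin cells, and MUC20 has a near-identical copy that could take part of its reads. In ND-646 cells 4 genes rose, namely MUC20, CAMP (cathelicidin, log2 fold-change of 2.29 ± 0.55), ZG16B, and SLPI (leukocyte protease inhibitor). Another 4 fell, namely TFF1 (-3.21 ± 0.46) and TFF3 (-2.18 ± 0.42), both trefoil peptides of mucosal repair, CYBA (an NADPH oxidase subunit), and S100A8. The SLPI call was lost without ND-646 replicate 1 or any day-0 replicate, and that of S100A8 without ND-646 replicate 2 or 3 or any day-0 replicate. In TVB-3166 cells MUC20 rose and TFF1, CYBA, and S100A8 fell, S100A8 with a call that was lost without TVB-3166 replicate 3 or day-0 replicate 1. Against untreated day 7, TFF1 with TVB-3166 (-0.55) and S100A8 with ND-646 (-0.22) and TVB-3166 (-0.26) were not called, while TFF1 and TFF3 with ND-646 and CYBA with both drugs were still called lower. TFF1 was also called lower against day 0 with bleomycin (-3.38), doxorubicin (-1.30), and palbociclib (-2.49), and TFF3 with bleomycin and palbociclib. Of these calls, only that of TFF1 with doxorubicin was lost against day 7 (-0.04). S100A7, S100A8, and S100A9, calcium-binding antimicrobial proteins, all rose with bleomycin and with doxorubicin, for example S100A7 by 4.02 ± 0.42 with bleomycin. With doxorubicin, however, the S100A8 call was lost without doxorubicin replicate 2 or day-0 replicate 2 or 3, and the S100A9 call without day-0 replicate 1. S100A9 was also called higher against untreated day 7 with ND-646 (1.03, edgeR adjusted p = 0.00171) and palbociclib (1.28, edgeR adjusted p = 3.72e-06). The mucin MUC16 fell by 4.0 on the log2 scale with palbociclib, and by 2.68 without day-0 replicate 1, which had 8.90 CPM against 1.73 and 1.54 CPM in the other replicates. In TVB-3166 relative to ND-646 cells, MUC1 was the 1 listed gene called higher (1.02 ± 0.13, edgeR adjusted p = 0.0404), a call kept only without ND-646 replicate 1 when single libraries were left out. With the replicate number as a block, 2 listed genes were called there, MUC1 and TFF3 (2.06).

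Of the complement list, 9 of 41 genes had a row. CD55 and CD46, which protect cells from complement, were both higher in ND-646 (1.93 ± 0.25 and 1.08 ± 0.16) and TVB-3166 cells (1.52 ± 0.10 and 1.23 ± 0.11), CD46 in ND-646 cells not without day-0 replicate 2. Against untreated day 7, CD55 was called higher with both drugs, and CD46 missed the fold threshold (0.74 with ND-646 and 0.88 with TVB-3166). CD55 was also called higher with bleomycin, both against day 0 and against day 7. C1S, a protease of the classical pathway, was higher with bleomycin (3.43 ± 0.43), doxorubicin (3.36 ± 0.32), and palbociclib (1.95 ± 0.35), the groups in which SERPINA3 was highest, and C1R with bleomycin and doxorubicin. CFD, the protease that cleaves factor B, was lower with TVB-3166, bleomycin, doxorubicin, and palbociclib. The CFD call was lost with TVB-3166 or palbociclib without replicate 3 of that drug or without day-0 replicate 2. It was also lost against untreated day 7 with TVB-3166 (-0.91) and palbociclib (-0.73), and kept with bleomycin and doxorubicin. C1RL was called higher with all drugs but TVB-3166, with alisertib not without alisertib replicate 2 or 3 or day-0 replicate 1, and was not called higher against untreated day 7 with any of them. With TVB-3166, C1RL was called lower against untreated day 7 (-1.15, edgeR adjusted p = 0.0126).

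Among the cytokines, receptors, and factors upstream of the acute-phase response, 31 of 42 genes had a row, and 9, 8, 10, 9, 4, and 2 were higher with ND-646, TVB-3166, bleomycin, doxorubicin, palbociclib, and alisertib. IRF1, an interferon-induced factor, and LIFR, a receptor of the interleukin-6 family, were higher with all drugs but alisertib, where both missed the fold threshold (0.96 ± 0.21 and 0.78 ± 0.17). NFKBIZ, the NF-κB cofactor IκBζ that acts at the LCN2 gene, and EHF, an epithelial ETS factor, were called higher with all 6 drugs. The NFKBIZ calls with ND-646 (1.90 ± 0.63) and bleomycin (2.04 ± 0.59) depended on single libraries, as the former was lost without ND-646 replicate 2 or 3 or any day-0 replicate and the latter without bleomycin replicate 3 or day-0 replicate 1 or 2. Against untreated day 7, NFKBIZ was called higher with TVB-3166, doxorubicin, and palbociclib, but not with ND-646 (1.07, edgeR adjusted p = 0.208), bleomycin (1.22, edgeR adjusted p = 0.107), or alisertib (0.72, edgeR adjusted p = 0.112). The alisertib call was also lost with all 24 libraries in 1 fit (edgeR adjusted p = 0.0555). CEBPB was higher with ND-646 (1.89 ± 0.23), TVB-3166 (1.16 ± 0.10), bleomycin (2.16 ± 0.21), and doxorubicin (1.15 ± 0.10). CEBPD was higher with bleomycin (1.67 ± 0.21) and doxorubicin (1.59 ± 0.17), and its value was 0.08 ± 0.28 with ND-646 and -0.42 ± 0.24 with TVB-3166. Relative to untreated day 7, CEBPD was called lower with TVB-3166 (-1.01, edgeR adjusted p = 0.00614) and still higher with bleomycin and doxorubicin. STAT3 was not called with any drug, with values from 0.04 ± 0.20 with ND-646 to 0.82 ± 0.16 with bleomycin, the latter with an edgeR adjusted p-value of 0.00215.

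Among relatives and receptors 4 of 23 genes had a row. LRP2 (megalin), an endocytic receptor that binds lipocalin-2, fell by 2.24 on the log2 scale with ND-646, from 1.53 ± 0.68 to 0.323 ± 0.088 CPM (SD, n = 3, edgeR adjusted p = 0.00444). It fell by 1.46 with TVB-3166 (edgeR adjusted p = 0.0357), a call lost without TVB-3166 replicate 2 or 3 or day-0 replicate 1 or 3, and rose by 1.61 with doxorubicin (edgeR adjusted p = 0.00459). LRP2 was not called with bleomycin (0.42 ± 0.37), palbociclib (-0.52 ± 0.34), or alisertib (0.91 ± 0.33).

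Against untreated day 7, 12 of 62 listed genes tested were called higher with ND-646 (19.4%, against 8.03% of all genes) and 10 of 63 with TVB-3166 (15.9%, against 7.12%). Called higher were 24 of 63 with bleomycin (38.1%, against 8.19%), 20 with doxorubicin (31.7%, against 6.87%), 11 with palbociclib (17.5%, against 6.38%), and 4 with alisertib (6.35%, against 2.11%). The share of all genes called higher was also smaller against day 7 than against day 0 with each of the 6 drugs. Against both untreated groups, 11 genes were called higher with ND-646 and 7 with TVB-3166, and MUC20 and SERPINA1 were so with all 6 drugs. CEBPB kept its call against day 7 with ND-646 and bleomycin but not with TVB-3166 or doxorubicin, and EHF lost it with ND-646, TVB-3166, and palbociclib. Between untreated day 7 and day 0, edgeR called 0 of 63 listed genes in either direction, DESeq2 called 1 higher and 2 lower, and 1 and 3 passed at an unadjusted p-value under 0.05.

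Markers of other cell types were set beside these values. CD68, a lysosomal protein used as a leukocyte marker and the 1 of 6 with a row, was at 4.20 to 6.08 CPM in untreated day-0, 42.0 to 54.5 in ND-646, 25.6 to 30.3 in TVB-3166, 34.3 to 56.4 in bleomycin, and 4.78 to 5.78 CPM in alisertib cells. The sum of COL1A1 and VWF was 12.2 to 13.6 CPM in untreated day-0 and 6.5 to 11.6 CPM in ND-646 cells. SERPINA1, the 1 of 5 hepatocyte markers with a row, is itself among the listed genes, and the summed SKBR3 markers were at 17029 to 20059 CPM in untreated day-0 and 9938 to 13419 CPM in bleomycin cells. Whether these have a part in the levels of LCN2, PIGR, and SERPINA3 was not tested, and in bulk libraries more expressing cells and more RNA per cell cannot be told apart.

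**Figure D3:**
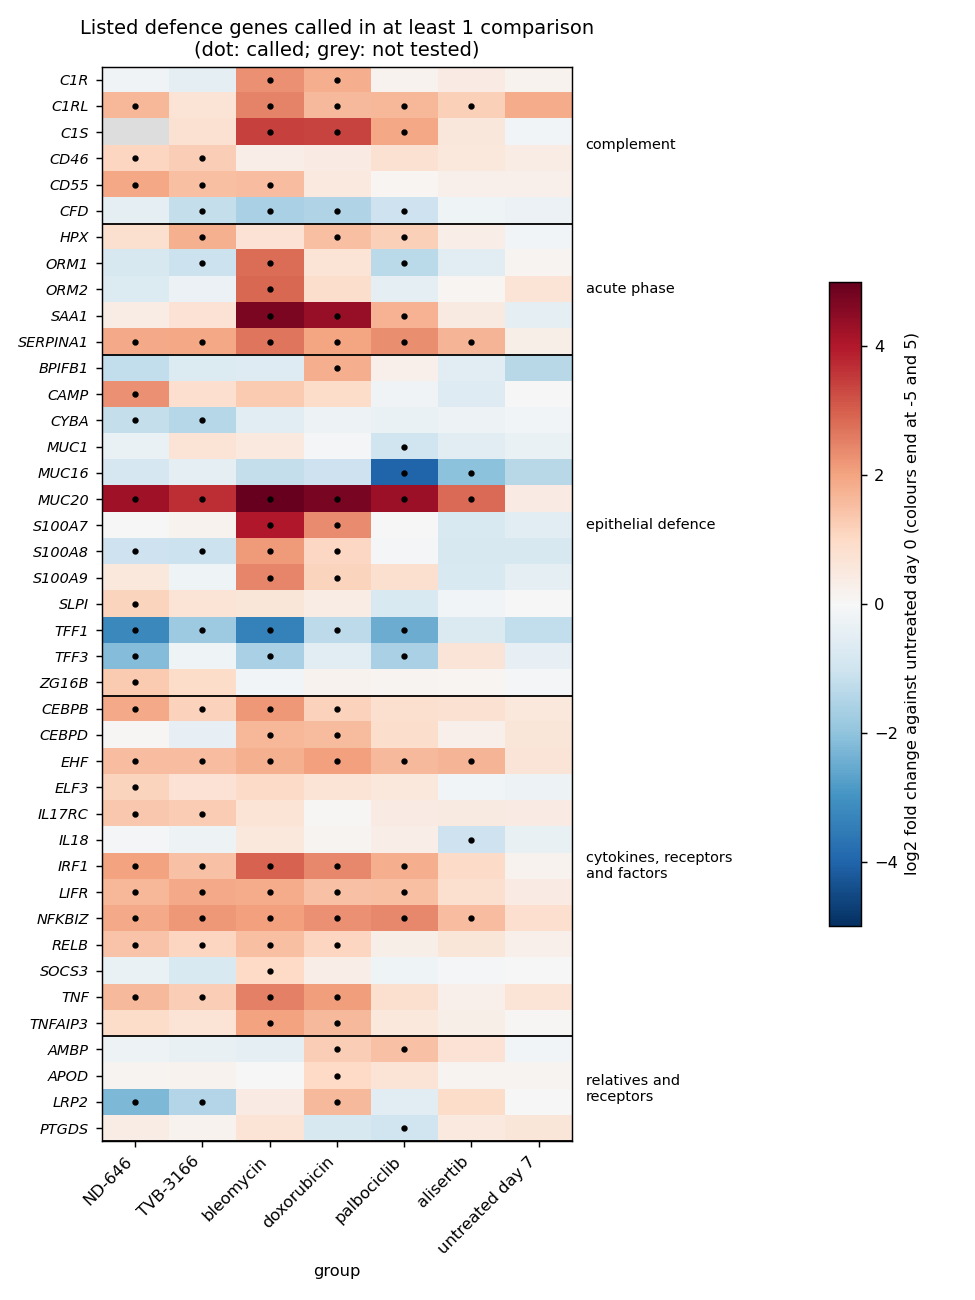
Log2 fold-change relative to untreated day 0 (colour, red for higher and blue for lower, ending at 5 in either direction) of the 41 listed genes called in at least 1 comparison with day 0 (rows, grouped by list) in the 6 drug-treated groups and untreated day 7 (columns), with a dot where a gene was called and grey where it was not tested. MUC20, SERPINA1, NFKBIZ, and EHF carry a dot with all 6 drugs, and SAA1, C1S, and S100A7 are highest with bleomycin and doxorubicin.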

How the data were processed

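RNA of 24 SKBR3 samples was sequenced, and groups and replicate numbers were taken from the labels. The authors used HISAT2 for alignment to GRCh37 and StringTie for transcript assembly, and the deposited values are whole-number counts per gene without normalization. Counting settings, strand included, are not given in the sources used here. The methods name a total RNA kit and the labels an mRNA kit. The table lists 14493 genes, with counts of at least 1 in every library, so that genes without reads in a library are not covered.

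Tests used edgeR 4.0.16 under R 4.3.3 (glmQLFTest, 2-sided, filterByExpr, TMM, only both groups compared), with Benjamini-Hochberg adjustment over all genes tested. A call needed a 2-fold difference and an adjusted p-value under 0.05. Standard errors of log2 fold-changes are the estimate divided by the square root of the F statistic. Levels are CPM with TMM over 24 libraries (prior count of 2 on the log2 scale). Positions come from GENCODE on GRCh37 and promoters from RefSeq.

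The genes and the lists around them were chosen with earlier results of these data known. Named from the lists are the called genes of largest change (up to 4 in FASTIS cells, up to 2 otherwise), those called with all 6 drugs, and genes with a direct link to LCN2, C3, or CFB. Others named by their list counts were chosen after their values were seen. Of the genes most like LCN2 in pattern, 1 is not reported here. Same-numbered libraries deviated together at r over 0.1 in all 3 pairs for TVB-3166 and ND-646 (0.213 to 0.380), and, against untreated day 7, for bleomycin (0.107 to 0.142) and alisertib (0.105 to 0.218), but in no comparison with day 0. Printed values are from fits without the block unless stated. For TVB-3166 against ND-646, blocked values are given for LCN2, PIGR, and TFF3 only. Alternatives were DESeq2 1.42.0, RLE size factors, all 24 libraries in 1 fit, the filter (none, or 10 counts in each library), the replicate block, other thresholds, untreated day 7 as the reference, leaving out each replicate, and leaving out the libraries numbered 1. The test was tried on simulated counts.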

Additional observations from a re-analysis of the deposited data

How the results depend on the processing

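Of 328 log2 fold-changes of LCN2, PIGR, and SERPINA3 under the alternatives, 318 moved by less than the pooled SD of both groups on the log2 scale, 10 moved by more, all with untreated day 7 as the reference (with or without the block), and the alisertib value of SERPINA3 changed sign among these. Of 384 counts of called genes, 341 stayed within 1.5 times. With at least 10 counts in every library, 1 of the 3 genes was called higher with ND-646, TVB-3166, and alisertib, because PIGR, with 6 counts in day-0 replicate 1, was not tested, and 3 listed genes were lower with ND-646 and 4 with palbociclib. Without a fold threshold, 26, 38, 37, 26, and 14 listed genes were higher with TVB-3166, bleomycin, doxorubicin, palbociclib, and alisertib, and 11 and 6 were lower with palbociclib and alisertib. Listed genes lower with alisertib were 1 with DESeq2, 0 against day 7 (with or without the block), and 1 without the libraries numbered 1. For untreated day 7 against day 0, 1 listed gene was higher with DESeq2, all 24 libraries, the replicate block, the raw p-value, no fold threshold, and without the libraries numbered 1, and lower were 2, 1, 2, 3, 0, and 1, respectively. For TVB-3166 against ND-646, 2 listed genes were higher with DESeq2, all 24 libraries, and the replicate block, and 3 with the raw p-value and without the libraries numbered 1, while 1 was lower with the raw p-value. The block otherwise removed the calls of APOD with doxorubicin (1.00) and MUC1 with palbociclib (-0.97), and changed no call of LCN2, PIGR, or SERPINA3. Against untreated day 7, the block, added after seeing the data for bleomycin and alisertib, changed no call of these 3 or of the listed genes.

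Leaving out single libraries gave 2 to 3 of the 3 genes higher with TVB-3166, the third being SERPINA3 (1.03) without day-0 replicate 2, and 2 to 6 listed genes lower with TVB-3166 (2 without TVB-3166 replicate 3), 0 to 2 lower with alisertib, and 0 to 3 higher in TVB-3166 than ND-646 cells. Against untreated day 7, C1RL turned to -0.17 with ND-646, -1.15 with TVB-3166, -0.22 with doxorubicin, -0.17 with palbociclib, and -0.66 with alisertib. With bleomycin it fell from 2.47 to 0.63. Between untreated day 7 and day 0 the log2 fold-change of C1RL was 1.86, without a call in the main fit. The cause was not tested. Of 6973 fold-changes of listed genes, 126 fell below the threshold and 75 passed it. Another 6, all of C1RL, changed sign with a call in the main fit or in the alternative. Changes of sign without a call in either fit are not counted here. The low counts of the untreated libraries (6 to 67 for the 3 genes on day 0) limit the precision of every fold-change.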
